A study of Mus musculus with 4 samples.

Results

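Chaperones and oxidoreductases of the endoplasmic reticulum, 9 genes in all, were followed in mouse round spermatids, the haploid cells that follow meiosis. Clgn (calmegin), Calr3 (calreticulin 3, also called calsperin) and Pdilt (a testis-specific relative of protein disulfide isomerase) are made mainly in male germ cells. Canx (calnexin), Calr (calreticulin), Pdia3, Pdia4, Pdia6 and P4hb (protein disulfide isomerase itself) are their relatives in most somatic cells. The genes are the rows whose symbol is on this list of names. All 9 were found among the 25965 genes of the deposited table, and all 9 were among the 15888 genes that passed the filter of at least 1 RPM (reads scaled to the library's total) in at least 2 libraries. The study profiled sorted round spermatids from the testis of mice on the ICR background. The genotypes analysed were heterozygous (Wfdc15a+/-) and labelled knockout (Wfdc15a-/-), with 2 libraries each. Every heterozygous control therefore carries 1 altered Wfdc15a allele, and the wild-type controls that the design text mentions were not analysed here. The sources used here do not say which part of Wfdc15a was altered, how old the animals were, or whether the 2 libraries of a genotype came from separate animals, so the p-values measure the spread between these libraries, which may be technical.

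Glycoproteins that enter the endoplasmic reticulum are bound through their trimmed sugars by the lectin chaperones calnexin, which is anchored in the membrane, and calreticulin, which is soluble. These chaperones recruit oxidoreductases of the protein disulfide isomerase family, which make and rearrange disulfide bonds through a pair of cysteines. In male germ cells calmegin stands beside calnexin, calsperin beside calreticulin, and PDILT beside protein disulfide isomerase. Male mice lacking any 1 of these germ cell chaperones make sperm with little or no mature ADAM3, a membrane protein that sperm need to pass through the oviduct and to bind the egg coat, and are infertile or nearly so.

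The coding sequences show where the germ cell oxidoreductase differs from its relatives. The stretches below run 5′ to 3′ along the GENCODE M21 coding sequence (GRCm38, the same build as mm10), in each case 12 codons, and are shown because they hold the catalytic cysteines that a protein disulfide isomerase needs. Capitals mark the 4 codons of the catalytic site (cysteine, glycine, histidine, cysteine) or the codons aligned with them, and codons are counted from 1 at the start codon.
P4hb codon 55: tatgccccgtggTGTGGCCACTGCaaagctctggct
P4hb codon 399: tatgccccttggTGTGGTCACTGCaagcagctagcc
Pdia3 codon 57: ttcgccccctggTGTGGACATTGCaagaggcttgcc
Pdia6 codon 60: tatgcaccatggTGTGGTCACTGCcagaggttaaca
Pdilt codon 69, aligned with P4hb codon 55: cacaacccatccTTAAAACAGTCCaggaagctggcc
Pdilt codon 414, aligned with P4hb codon 399: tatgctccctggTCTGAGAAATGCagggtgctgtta
The site occurs in frame at 2 places in P4hb, 2 in Pdia3, 2 in Pdia6 and 3 in Pdia4, and at 0 places in Pdilt. Of the aligned codons in Pdilt, the first stretch has 0 cysteine codons at the 2 cysteine positions and the second has 1, the last of the capitals.

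A soluble resident of the endoplasmic reticulum ends in a retrieval signal, classically lysine, aspartate, glutamate, leucine, whereas a membrane-anchored one ends in a cytosolic tail. The last 4 codons (capitals) and the stop codon (lower case) are shown because they separate these 2 kinds of member.
Calr: AAGGATGAGCTGtag
Calr3: CAGGGCGAACTAtag
P4hb: AAGGATGAACTGtag
Pdilt: AAAGAAGAACTTtag
Canx: CCACGAAGAGAGtga
Clgn: GTACGGAAGGATtga
Calr, P4hb and Pdia6 encode the classical signal. The germ cell relatives Calr3 and Pdilt encode variants of it that also end in an acidic residue and leucine, as do Pdia3 and Pdia4. The membrane-anchored Canx and Clgn do not. Aligned as translated, Clgn matched Canx at 59.1% of 577 positions and Calr3 matched Calr at 52.1% of 374. Pdilt was the most distant of the germ cell members from its relatives, with 30.1% identity to P4hb over 501 positions, 26.7% to Pdia4, 22.6% to Pdia3 and 21.5% to Pdia6.

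On mm10, Clgn lies on chromosome 8 from 83389867 to 83428552 on the plus strand, with 15 exons in its principal transcript. Calr3 lies on the minus strand of the same chromosome, from 72424176 to 72443870, with 9 exons, and Calr also lies there on the minus strand, from 84841850 to 84846934, with 9 exons. Pdilt occupies chromosome 7 from 119486587 to 119523482 on the minus strand, with 12 exons. The remaining members are Canx (chromosome 11, 50293961 to 50325673, minus, 15 exons), Pdia3 (chromosome 2, 121413775 to 121438687, plus, 13 exons), Pdia4 (chromosome 6, 47796142 to 47813512, minus, 10 exons), Pdia6 (chromosome 12, 17266545 to 17284770, plus, 13 exons) and P4hb (chromosome 11, 120560298 to 120573253, minus, 11 exons). All are annotated as protein-coding, and every value given for them is the sum over the gene.

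Because the libraries do not keep strand, reads of overlapping exons on the opposite strand cannot be told apart from those of a member. Exons of Pdilt overlap those of Acsm5 by 104 bases and those of Gm37518, an unclassified transcript that was not analysed here, by 201 bases. Exons of Pdia6 overlap those of Atp6v1c2 by 50 bases. Acsm5 was at 0 to 1.42 RPM and Atp6v1c2 at 1.21 to 2.93 RPM, far below the members beside them. Pdia3 shares 18 bases with Catsper2, a sperm calcium channel subunit that was itself at 528 to 651 RPM. Of the 50-base stretches of each member's transcripts, 7.47% of those of Pdilt and 0.343% of those of Calr also occur in transcripts of another gene, so the counting could split such reads, and for the other members the share was at most 0.0314%.

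The promoters of 8 of the 9 members were found in the RefSeq table (GRCm38.p6, 250 bases before to 50 after the start of transcription), and Clgn was not. The endoplasmic reticulum stress response element, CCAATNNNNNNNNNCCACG, through which the factors ATF6 and XBP1 are known to act, was searched on both strands. It was present in 39 of 32851 promoters, or 0.119%. Among the members 3 somatic ones held it, and their matches are shown with the fixed letters in capitals, in the direction of the motif.
Calr, chr8:84847075-84847093: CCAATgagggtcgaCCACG
Canx, chr11:50325800-50325818: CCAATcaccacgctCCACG
Pdia6, chr12:17266491-17266509: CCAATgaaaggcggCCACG
Neither Calr3 nor Pdilt held these letters in this window, nor did Pdia3, Pdia4 or P4hb. The 5 letters CCAAT alone, which lie within this element, were in 37.4% of promoters and in all 8 members found. The related element ATTGGNCCACG (12 promoters, 0.0365%) and the cAMP response element TGACGTCA (588 promoters, 1.79%), both searched on both strands, were in 0 of the 8. A match is a run of letters and was not tested as a binding site.

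The libraries held 5774112 reads (heterozygous control 1), 33853604 (heterozygous control 2), 21160061 (knockout 1) and 11268909 (knockout 2), a 5.86-fold range, so that 1 read was worth 0.0295 to 0.173 RPM. The targeted gene, Wfdc15a, had 121 and 85.2 RPM in the controls against 82.6 and 59.5 RPM in knockouts 1 and 2, a log2 difference of -0.53 (SE 0.29, limma adjusted p = 0.647). Its transcript was therefore counted in all 4 libraries, and as the altered part is not given, its level does not check the labels. Summed over 10 round spermatid markers the libraries were at 2552 to 3783 RPM with overlapping sums, and 4 of the 10 were above both controls and 0 below. Over all tested genes 23.5% were above both controls and 15% below, which is the background for this and the following marker counts. The counts take in every listed marker, also those that did not pass the filter. Only 13 of 14 macrophage, 4 of 8 Leydig cell and 6 of 8 Sertoli markers were among the tested genes. Summed macrophage markers were at 37.2 and 38.5 RPM in the controls against 370.3 and 122.5 RPM in the knockouts, with 12 of 14 markers above both controls, none at 0 in every library and Tyrobp at 0 in both controls. Leydig cell markers summed to 6.58 and 3.19 against 38.1 and 19.3 RPM (5 of 8 above, Hsd3b6 at 0 in both controls), Sertoli markers to 33.4 and 50.8 against 73.2 and 77.9 RPM (4 of 8 above), and spermatogonial markers to 59.6 and 54.2 against 90.6 and 79.95 RPM (5 of 8 above). Spermatocyte markers ranged from 302 to 598 RPM (2 of 8 above), and elongating spermatid markers summed to 4314 and 7994 against 4636 and 4310 RPM. Of these 10 elongating markers 6 were below both controls and 0 above, among them Tnp2, at 393 and 582 against 173 and 127 RPM (limma adjusted p = 0.222), and Prm1, at 529 and 931 against 308 and 223 RPM (adjusted p = 0.295). Their part in the results was not tested, and in bulk samples fewer cells of a type and less RNA per cell cannot be told apart.

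Calmegin was the most abundant of the 9 transcripts. Levels are compared between genes only per kilobase of exon, as RPM per kb over the 4 libraries. Clgn was at 237 ± 39.0 RPM per kb (SD, n = 4, range 203 to 284), at the 98.6th percentile of the 14027 tested genes with a known length. Pdia3, the oxidoreductase that works with calnexin and calreticulin, followed at 165.9 (150.3 to 190.6), and Pdilt stood level with it at 165.7 (120.2 to 200.1). Next came Calr at 72.3 (62.7 to 78.6), Calr3 at 53.8 (32.1 to 69.6), Pdia6 at 27.9 (24.7 to 33.7) and Canx at 21.1 (15.4 to 28.9). The lowest were P4hb at 7.55 (5.49 to 10.8) and Pdia4 at 3.80 (3.48 to 4.20), the last near the middle of all tested genes, at the 51.9th percentile. Pdia3 and Pdilt, Calr and Calr3, Calr3 and Pdia6, and Pdia6 and Canx were neighbours whose ranges overlapped, while the ranges of the other 4 neighbouring pairs did not. The order was the same per kilobase of the longest transcript, although Pdia6 was then at 48.1 RPM per kb.

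**Figure D1:**
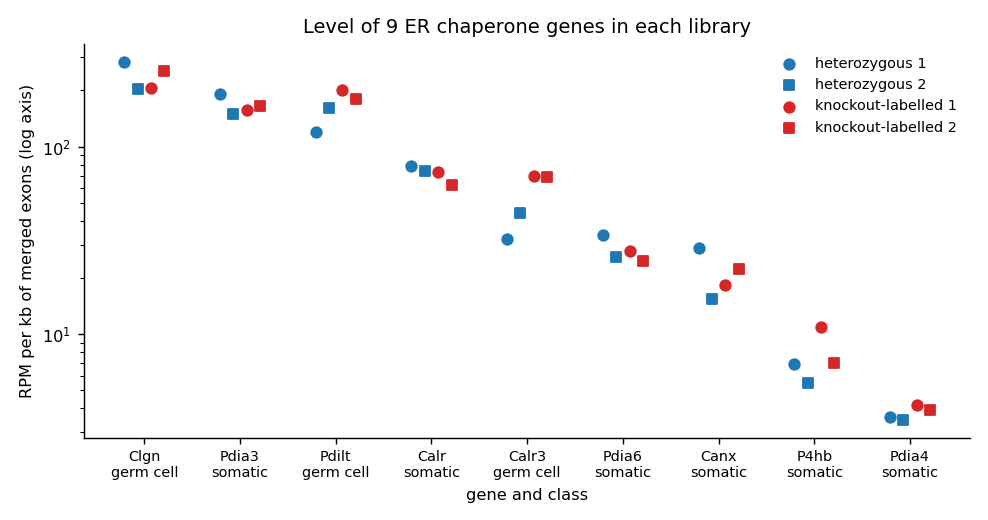
Level of each member in every library, in RPM per kilobase of exon on a log axis. Each point is 1 library (blue, heterozygous; red, labelled knockout), and genes are in order of mean level with their class under the name. Clgn stands highest, at 203 to 284 RPM per kb, Pdilt and Pdia3 share the next position, and Pdia4 is lowest at 3.48 to 4.20 RPM per kb.

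Summed per kilobase, the 3 germ cell members made up 56.0% and 59.9% of the level of the 9 genes in the heterozygous controls and 62.0% and 63.9% in the knockouts. The knockout libraries were thus both above both controls. Clgn alone held 26.9% to 36.5%, Pdilt 15.4% to 26.0% and Calr3 4.13% to 9.05%, while Pdia3 held 20.5% to 24.5% as the leading somatic member.

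Of the germ cell members, Calr3 and Pdilt stood higher in both knockout libraries than in both controls, and Clgn did not. Calr3, the germ cell relative of calreticulin, was at 63.0 and 87.2 RPM in the controls and at 137 and 135 RPM in the knockouts. The groups did not overlap, and the knockouts lay close together. The means were 75.1 ± 17.1 and 136 ± 0.917 RPM (SD, n = 2 each), a 1.81-fold ratio and a log2 difference of 0.87 (SE 0.26, 95% interval 0.30 to 1.45). With limma the adjusted p was 0.470 over all 15888 genes, and the unadjusted p from the same limma fit ranked 214th. Calr3 therefore did not pass the threshold of 0.05. Without heterozygous control 2 it did, with a log2 difference of 1.11 and an adjusted p of 0.0217, in a fit where 558 of 15888 genes passed (3.51%). The control group is then 1 library, assumed to vary like the knockouts, whose spread is the only one measured. Over all alternatives its adjusted p ran from 0.0217 to 0.9996 and its log2 difference from 0.64 to 1.11.

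Pdilt, which is known to work with calmegin and calsperin, was at 274 and 369 RPM in the controls and at 457 and 412 RPM in the knockouts. Both knockouts were above both controls. The means of 322 ± 67.2 and 434 ± 31.3 RPM (SD, n = 2 each) differed by 0.45 on the log2 scale (SE 0.22, 95% interval -0.04 to 0.93, adjusted p = 0.628), and the transcript did not pass. Clgn, the membrane-bound lectin chaperone that holds newly made ADAM proteins while they pair, was at 1143 and 817 RPM in the controls and at 833 and 1024 RPM in the knockouts. The knockouts lay between the controls. Its log2 difference was -0.07 (SE 0.22, 95% interval -0.54 to 0.41, adjusted p = 0.962).

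Among the somatic lectin chaperones, Calr stood lower in both knockouts and Canx overlapped between genotypes. Calr was at 226 and 213 RPM in the controls and at 212 and 181 RPM in the knockouts. Both knockouts were below both controls, but heterozygous control 2 and knockout 1 were separated by under 2 RPM. The log2 difference was -0.17 (SE 0.22, 95% interval -0.65 to 0.32, adjusted p = 0.887). Canx was the most variable member within a group, at 135.6 and 72.0 RPM in the controls and at 85.3 and 103.9 RPM in the knockouts. The groups overlapped, with a log2 difference of -0.07 (SE 0.32, 95% interval -0.77 to 0.63, adjusted p = 0.975).

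Among the somatic oxidoreductases, on the deposited scaling, Pdia3 and Pdia6 overlapped between genotypes, while P4hb and Pdia4 stood higher in both knockouts by small margins. Pdia3 was at 598 and 472 RPM in the controls and at 496 and 517 RPM in the knockouts, a log2 difference of -0.07 (SE 0.20, adjusted p = 0.956). Pdia6, which acts on a range of substrates and binds the chaperone BiP, was at 126 and 96.1 against 103.6 and 92.4 RPM, a log2 difference of -0.17 (SE 0.26, adjusted p = 0.903). Both knockouts lay between the controls for Pdia3, as did knockout 1 for Pdia6. P4hb was at 19.7 and 15.7 against 31.0 and 19.97 RPM, with 114 to 656 reads a library and a log2 difference of 0.50 (SE 0.36, adjusted p = 0.744). Its groups were separated, but only by the small gap between heterozygous control 1 and knockout 2. Pdia4, which has an additional catalytic domain, was at 8.66 and 8.36 against 10.1 and 9.41 RPM, resting on 50 to 283 reads a library, with a log2 difference of 0.19 (SE 0.40, adjusted p = 0.932). The 2 knockouts were above both controls by a margin smaller than the standard error of the fit.

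None of the 9 members passed limma at an adjusted p of 0.05, and neither did any other gene, 0 of 15888 (0%). At an unadjusted p under 0.05 there was 1 member, Calr3, beside 1283 genes in all (8.08%). The voom fit on recovered reads also called 0 genes, with 1961 at an unadjusted p under 0.05, again including 1 member. Both knockouts were above both controls in 4 members, namely Calr3, Pdilt, P4hb and Pdia4, against 23.5% of all tested genes. Both were below in 1 member, Calr, against 15% of all tested genes. By class the higher members were 2 of 3 germ cell and 2 of 6 somatic genes. The median log2 difference was 0.45 over the germ cell members, -0.07 over the somatic members and 0.07 over all tested genes. The split of all genes moved with the scaling, with 19.95% above and 19.63% below after median-ratio scaling and 18.4% above and 19.6% below after quantile normalization. Calr3, Pdilt and P4hb were above both controls under each of these scalings. Pdia4 and Calr overlapped between groups after quantile normalization, and Pdia6 joined Calr below both controls after median-ratio scaling.

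**Figure D2:**
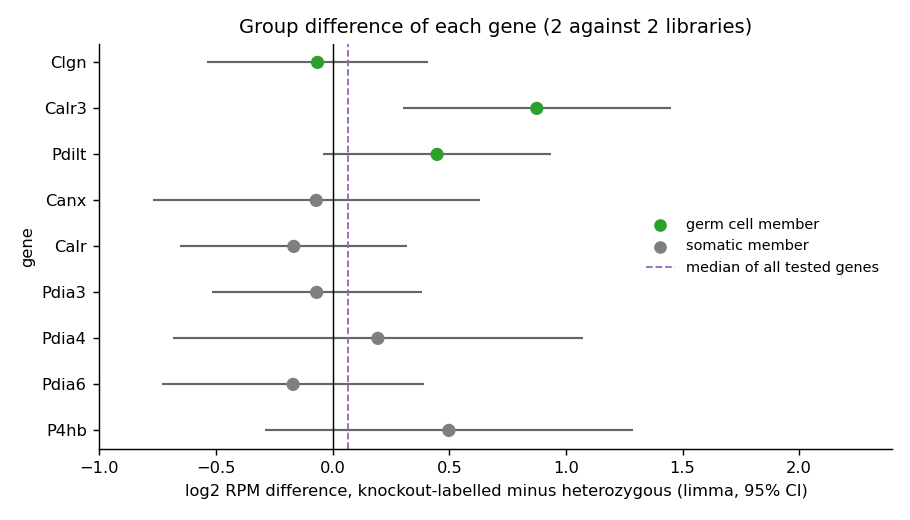
Log2 difference of each member, knockout minus heterozygous, with its 95% interval from limma, 2 libraries per genotype. Green points are germ cell members, grey points somatic ones, and the dashed line is the median of all tested genes (0.07). The interval of Calr3 (0.30 to 1.45) lies above 0 before adjustment, and those of the other 8 members span 0.

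A ratio of a germ cell member to its somatic relative within a library is free of the library's scaling. Calr3 per Calr, both per kilobase, was 0.409 and 0.5998 in the controls and 0.945 and 1.10 in the knockouts. The groups did not overlap and the ratio was 2.06-fold higher in the knockouts, a log2 difference of 1.04, and leaving out any 1 library kept it between 0.77 and 1.32. The exact two-sided permutation test gave p = 0.333, the smallest that 2 against 2 libraries can give. Clgn per Canx was 9.83 and 13.2 in the controls and 11.4 and 11.5 in the knockouts (exact permutation p = 1.0). Pdilt per P4hb was 17.4 and 29.5 against 18.5 and 25.9 (exact permutation p = 1.0). For these 2 pairs the knockouts lay between the controls.

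Against the other oxidoreductases, Pdilt was compared in 3 further ratios. Pdilt per Pdia3 was 0.631 and 1.08 in the controls and 1.27 and 1.10 in the knockouts, and Pdilt per Pdia6 was 3.57 and 6.31 against 7.23 and 7.33 (exact permutation p = 0.333 for each, the smallest possible). Pdilt per Pdia4 was 33.3 and 46.5 against 47.7 and 46.1, with overlapping groups (exact permutation p = 0.667). In all 3 ratios heterozygous control 1 was the lowest library. None of the 6 ratios could pass at this number of libraries, so the comparison rests on the values.

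**Figure D3:**
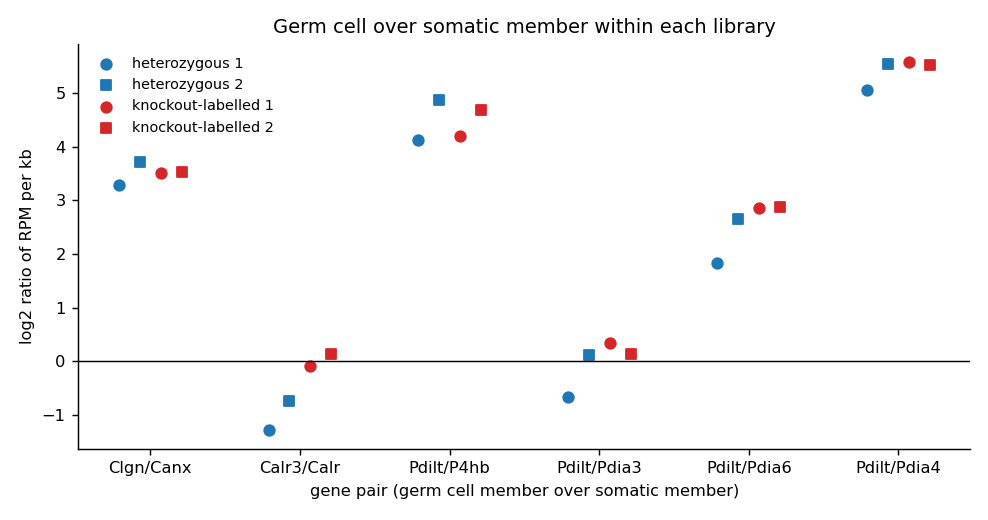
Log2 ratio of a germ cell member to a somatic member within each library, per kilobase, for 6 pairs. Each point is 1 library (blue, heterozygous; red, labelled knockout), and the line at 0 marks equal levels. As a ratio, Calr3 per Calr is 0.409 and 0.5998 in the heterozygous controls and 0.945 and 1.10 in the knockouts, while the knockouts lie between the controls for Clgn per Canx and Pdilt per P4hb.

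The wider folding and quality control pathway was followed through 8 lists with 153 genes, of which 141 were tested. With limma 0 of the 141 passed at an adjusted p of 0.05, and 15 had an unadjusted p under 0.05 (10.6%, against 8.08% of all tested genes). Of these 15, 14 were higher and 1 lower in the knockouts. The 1283 such genes of the whole limma fit also leaned this way, with 986 higher and 297 lower. The voom fit likewise passed 0, with 16 of the 141 at an unadjusted p under 0.05, against 1961 of all 15888 tested genes. Both knockouts were above both controls for 41 (29.1%, against 23.5% of all tested genes) and below for 20 (14.2%, against 15%), so both shares were near those of all genes. The median log2 difference was 0.04 against 0.07 over all tested genes. Medians near 0 changed sign with the scaling: after median-ratio scaling they were -0.02 for the other chaperones, -0.05 for degradation and -0.009 for the sperm surface proteins. The other lists kept their sign under median-ratio scaling and quantile normalization. Without heterozygous control 2, 7 of the 141 passed (4.96%, against 3.51% of all genes in that fit), namely Tmx2, Rnf5, Ufd1l, Creb3l4, Adam6a, Adam6b and Adam4, with adjusted p from 0.00512 (Adam6a, log2 difference 1.55) to 0.0449 (Ufd1l, log2 difference 0.93). Without heterozygous control 1 only Fkbp9 passed of the 141 (0.709%, against 2.78% of all genes in that fit), a prolyl isomerase that was at 8.49 RPM in that library and at 0.561 RPM in the other control, against 5.91 and 3.82 RPM in the knockouts.

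Enzymes that supply or carry disulfide bonds beside the members held 19 tested genes, with 6 above both controls (31.6%, against 23.5% of all tested genes), 1 below (5.26%, against 15%) and a median log2 difference of 0.11. Ero1l (Ero1a), which reoxidizes protein disulfide isomerase, was at 7.27 and 7.95 RPM in the controls and at 15.9 and 13.2 RPM in the knockouts, a log2 difference of 0.93 (adjusted p = 0.596). Tmx2, a membrane thioredoxin-related protein whose exons overlap those of Med19 (15.8 to 24.6 RPM), was at 62.2 and 99.4 against 134 and 115 RPM (0.66, adjusted p = 0.597). Txndc16 was at 28.4 and 20.9 against 37.7 and 31.7 RPM, and its exons overlap those of Gpr137c (1.54 to 4.97 RPM). These 3 had the smallest p of the list, and each was above both controls. Prdx4, the peroxiredoxin of the endoplasmic reticulum, had the highest level of the list, at 118.6 RPM per kb.

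The list of other chaperones of the endoplasmic reticulum, which includes BiP and its cofactors, held 22 tested genes, with a median of 0.05. Of these, 7 were above both controls (31.8%, against 23.5% of all tested genes) and 3 below (13.6%, against 15%). Mesdc2 (Mesd), a chaperone of lipoprotein receptors, was at 42.4 and 48.1 against 76.5 and 74.5 RPM (0.74, adjusted p = 0.569). Ppib, the cyclophilin of this compartment, was at 6.75 and 6.47 against 14.8 and 10.8 RPM (0.94, adjusted p = 0.606), but its exons overlap those of Snx22, at 3.29 and 3.90 against 8.41 and 5.95 RPM. Hyou1, a large HSP70 relative, was at 28.6 and 22.8 against 36.3 and 38.2 RPM. Hsp90b1, the resident HSP90, had the highest level of the list, at 117.6 RPM per kb, and overlapped between groups at 671 and 322 against 380 and 524 RPM. The stress response element described for Calr, Canx and Pdia6 was held by 6 of the 121 genes of the pathway lists found in the promoter table (4.96%), against 37 of 27025 genes in all (0.137%). These 6 are given because they hold it. Hspa5, which encodes BiP, was at 424 and 319 against 291 and 316 RPM, a log2 difference of -0.28 (adjusted p = 0.777), and Derl3 at 16.5 and 14.4 against 11.2 and 10.6 RPM, both below both controls. Ero1b, listed as Ero1lb, was at 395 and 378 against 425 and 410.2 RPM, above both. Hsp90b1, Dnajc3 (33.9 and 56.2 against 47.2 and 46.7 RPM) and Syvn1 (10.9 and 6.62 against 14.7 and 10.8 RPM) overlapped between groups.

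Sugar trimming and lectin-based sorting held 12 tested genes, with 6 above both controls (50%, against 23.5% of all tested genes), 4 below (33.3%, against 15%) and a median of 0.20. Mcfd2, a partner of the cargo lectin ERGIC-53, was at 3.12 and 5.35 against 9.78 and 8.79 RPM (1.18, adjusted p = 0.596), resting on 18 to 207 reads a library. Prkcsh, a glucosidase II subunit, was at 11.8 and 7.80 against 16.1 and 19.9 RPM (0.90, adjusted p = 0.602). Malectin, encoded by Mlec, binds the sugar early after its transfer and was lower at 67.1 and 83.8 RPM in the knockouts against 112 and 102 RPM in the controls (-0.51, adjusted p = 0.628). The oligosaccharyltransferase, which attaches the sugar, held 12 tested genes, with a median of -0.16. Of these, 1 was above (8.33%, against 23.5% of all tested genes) and 4 below (33.3%, against 15%). Stt3b, a catalytic subunit with the highest level of that list (174 RPM per kb), was at 835 and 809 against 604 and 689 RPM (-0.35, adjusted p = 0.643). Tmem258, listed as 1810006K21Rik, was at 62.0 and 60.6 against 58.1 and 31.4 RPM, with exons that overlap those of Fen1 (9.53 to 15.0 RPM). Magt1 was at 0 and 0.857 against 2.93 and 1.60 RPM, resting on 0 to 62 reads a library.

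Entry into the compartment, through the translocon and signal peptidase, held 15 tested genes, with a median of -0.01. Of these, 2 were above both controls (13.3%, against 23.5% of all tested genes) and 3 below (20%, against 15%). The signal peptidase subunit Spcs3 was at 3.98 and 2.78 against 7.18 and 11.7 RPM (1.46, adjusted p = 0.556), resting on 23 to 152 reads a library. Its exons overlap those of Asb5, which was at 4.33 and 6.88 against 7.94 and 2.57 RPM. The translocon subunit Sec61g was at 47.6 and 47.0 against 31.6 and 25.1 RPM (-0.75, adjusted p = 0.591). Ssr4 was at 3.29 and 2.69 against 4.44 and 10.6 RPM, resting on 19 to 120 reads a library. Spcs1, whose exons overlap those of Glt8d1 (208 to 267 RPM), had the highest level of the list, at 273 RPM per kb. Degradation of misfolded proteins held 26 tested genes, with 7 above (26.9%, against 23.5% of all tested genes), 2 below (7.69%, against 15%) and a median of 0.02. Rnf5, a membrane ubiquitin ligase, was at 3.29 and 4.79 against 15.1 and 12.2 RPM (1.78, adjusted p = 0.382), resting on 19 to 319 reads a library. It overlaps the antisense gene Gm20463, and reads of the 2 cannot be told apart. Ufd1l, which helps to extract substrates, was at 89.7 and 138 against 187 and 157 RPM, and its exons overlap those of Cdc45, at 32.0 and 47.1 against 57.5 and 60.5 RPM. The lectin Os9 was at 7.10 and 11.3 against 15.5 and 15.3 RPM. Selenos, listed as H47, had the highest level of that list, at 109.8 RPM per kb.

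Regulators of the unfolded protein response held 15 tested genes, with 8 above both controls (53.3%, against 23.5% of all tested genes), 1 below (6.67%, against 15%) and a median log2 difference of 0.52, the highest median of the 8 lists. That median was 0.45 after median-ratio scaling (53.3% above, against 19.95% of all tested genes) and 0.35 after quantile normalization (46.7%, against 18.4%). Atf4, the transcription factor made when translation is restrained, was at 3.98 and 3.57 RPM in the controls and at 9.74 and 13.5 RPM in the knockouts (1.60, adjusted p = 0.453), resting on 23 to 206 reads a library. Ern1, which encodes the stress sensor IRE1, was at 3.64 and 2.01 against 6.71 and 6.12 RPM (1.25, adjusted p = 0.607), resting on 21 to 142 reads. Creb3l4, a membrane-bound transcription factor of spermatids, had the highest level of the list (177.6 RPM per kb) and was at 195 and 298 against 369 and 332 RPM (0.54, adjusted p = 0.616). In each of these 3 genes both knockouts were above both controls, although none passed.

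**Figure D4:**
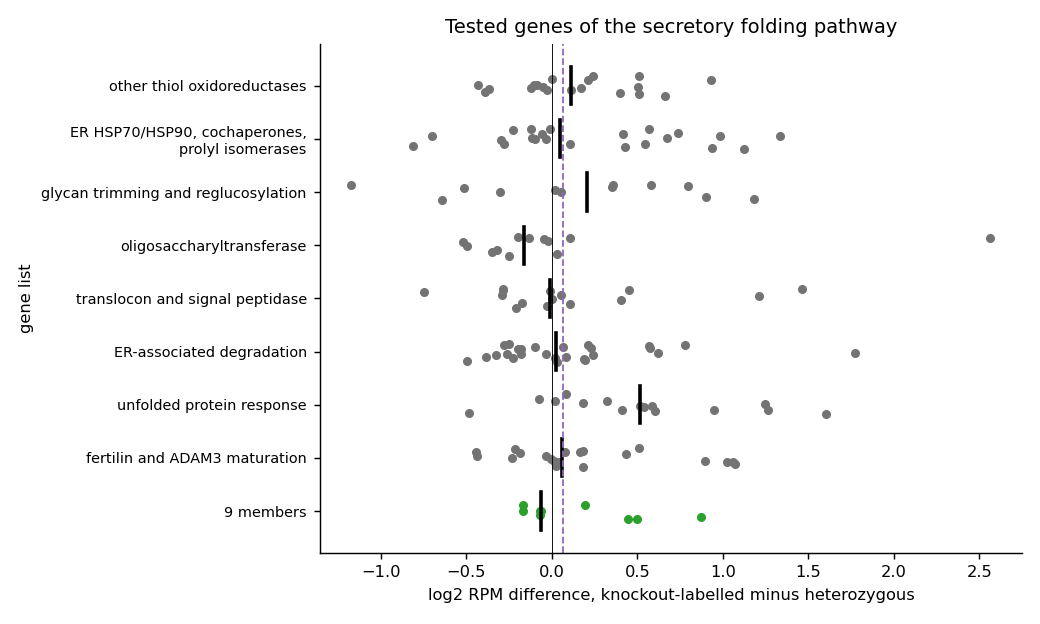
Log2 difference, knockout minus heterozygous, of every tested gene of the 8 pathway lists (grey) and of the members (green), 1 point a gene, with the median of each list as a black bar and that of all tested genes as a dashed line. The list of unfolded protein response regulators has a median of 0.52 and the oligosaccharyltransferase list one of -0.16, against 0.07 over all tested genes.

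The sperm surface proteins that the germ cell chaperones help to mature held 20 tested genes, with 4 above both controls (20%, against 23.5% of all tested genes), 2 below (10%, against 15%) and a median of 0.06. Adam3, the protein whose maturation depends on these chaperones, was at 1642 and 1544 RPM in the controls and at 1418 and 1780 RPM in the knockouts, a level of 543 RPM per kb. Adam2, a fertilin subunit, was at 997 and 873 against 843 and 1052 RPM, and its partner Adam1b was at 113 and 77.8 against 78.9 and 86.2 RPM. The other fertilin alpha gene, Adam1a, which is needed for ADAM3 to reach the surface, was at 117.6 and 195.7 against 184.5 and 160.5 RPM. Its exons, however, overlap those of Mapkapk5, at 127 and 209 against 197 and 175 RPM. They also overlap those of Tmem116, at 332 and 371 against 349 and 316 RPM, and of Gm42878, whose values are not given here. Adam5 was at 2129 and 1855 against 1936 and 2111 RPM. In all of these the groups overlapped, with adjusted p of 0.992 for Adam2 and 0.999 for Adam3. These 5 were named for their roles and after their values had been seen. The smallest p of the list belonged to Adam6a, at 27.2 and 52.7 against 75.2 and 83.9 RPM (1.07, adjusted p = 0.528), Adam6b, at 11.3 and 29.1 against 34.5 and 39.1 RPM (1.02, adjusted p = 0.596), and Adam4, at 15.1 and 31.9 against 48.2 and 34.5 RPM (0.90, adjusted p = 0.606). Adam6a and Adam6b are related copies, between which the authors' counting could split reads. Cmtm2a, whose exons overlap those of Cmtm1 (1485 to 1773 RPM), had the highest level of the list, at 1339 RPM per kb.

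The pattern over the 4 libraries was compared with that of 4428 other genes with a mean log2 RPM of at least 5, by the root mean square difference of each gene's deviations from its own mean. For Clgn the nearest were Gpcpd1 (difference 0.012) and Usp54 (0.018), and 238 genes lay within 0.1. For Pdilt they were Xpo5 (0.020) and Map2k3 (0.028), with 81 genes within 0.1. Calr3 had fewer genes near it, 6 within 0.1, with Ankrd44 (0.084) and Asb15 (0.087) nearest. Ankrd44 was at 28.4 and 35.9 RPM in the controls and at 52.6 and 58.4 RPM in the knockouts, and Asb15 at 40.7 and 61.4 against 81.4 and 89.3 RPM. Among the members the nearest pairs were Pdia3 with Pdia6 and Pdia3 with Clgn, at 0.097 each, while Calr3 and Pdilt were 0.219 apart and Calr3 and Canx were farthest, at 0.688. With 4 libraries such likeness is a description.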

How the data were processed

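The authors deposited 1 table of log2 RPM per gene for 4 libraries, reads scaled to each library's total without adjustment for length. Per the labels' protocols, sorted cells were amplified by Smart-seq2 with 15 cycles of PCR and tagmented with Nextera XT, without strand or molecular identifiers. The submitters' processing notes name HISAT2 2.1.0, Trim Galore 0.6.6 and FastQC 0.11.8, and the build mm10. The counting tool and annotation (not given in the sources used here) could not be checked. A gene with 0 reads carries 0.9 of a read, and 99.7% to 100.0% of the other values were whole reads within 0.01. PCR reads are not independent molecules, so a floor of 3 reads would cover counting error only. The fit used no floor in reads, only the filter of 1 RPM in at least 2 libraries.

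Genotypes and replicate numbers were read from the titles. The test was limma (version 3.58.1, R 4.3.3) on the deposited log2 values of genes with at least 1 RPM in 2 libraries (mean-variance trend, two-sided, Benjamini-Hochberg adjustment over 15888 genes, threshold 0.05), after the script was tested on simulated data. Ratios used exact permutation tests. Levels per kb used merged GENCODE M21 exons. Alternatives were other scalings, pseudocount, filters, variance models, voom on recovered reads, a replicate block and leaving out each library. Same-numbered libraries did not deviate together (correlation -0.076). The rule for named genes took the 9 members, the 3 smallest p and the highest level per kb of each of 8 pathway lists, and the 2 genes nearest in pattern to each germ cell member. Of 228 listed symbols, 217 matched as written, 9 by another symbol and 2 (Selenof, Marchf6) not at all. Members and lists were chosen with earlier results of these data known. Python 3.11.15, pandas 2.3.3, SciPy 1.17.1 and Biopython 1.88 were also used.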

Additional observations from a re-analysis of the deposited data

How the results depend on the processing

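Depth differed 5.86-fold between libraries, and 2 libraries a genotype leave wide intervals. Log2 differences of 0.87 (Calr3, SE 0.26) and 1.78 (Rnf5, SE 0.45) did not pass after limma adjustment over all tested genes. The number of genes passing with limma was 0, and became 1 with log2(RPM + 1), 180 with no filter on low values and 66 with the replicate block, while leaving out 1 library gave 0 to 558. The replicate numbers are shared labels only (2 pairs, correlation -0.076), and with the replicate block 0 members passed. Members passing ranged from 0 to 1 when 1 library was left out, the 1 being Calr3 without heterozygous control 2. Members above both controls ranged from 4 to 7 and members below from 1 to 5 when 1 library was left out. One group then holds 1 library, so groups separate more easily in any gene. The share of all tested genes was not counted there, so these counts say nothing particular to the members. Members below were 2 with median-ratio scaling (against 19.6% of all tested genes) and 0 with quantile normalization (against 19.6%). The direction of 4 members near 0 was not stable. When 1 library was left out the log2 difference ran from -0.31 to 0.18 for Clgn, from -0.53 to 0.39 for Canx, from -0.24 to 0.10 for Pdia3 and from -0.37 to 0.026 for Pdia6, and with voom Canx was at 0.043. The log2 difference of Clgn per Canx ran from -0.21 to 0.22 and that of Pdilt per P4hb from -0.43 to 0.33. Calr3 (0.64 to 1.11), Pdilt (0.23 to 0.66), P4hb (0.18 to 0.82), Pdia4 (0.03 to 0.24) and Calr (-0.28 to -0.05) kept their direction under all 13 alternatives. Some of the 13 could not change it: the 2 other filters, no variance trend, array weights and the replicate block leave the log2 difference as it was. The cause of these changes was not tested.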
